A study of Mus musculus with 6 samples.

Results

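The genes described here encode lysosomal hydrolases, their cofactors and lysosomal membrane proteins. They were chosen by symbol as a list of 51 genes of known lysosomal function, with earlier results of these data known. Of them, 50 had a value among the 21436 genes of the expression table. Expression of Ctsf was not analysed here, but its promoter window is counted among those of the members. By role, the list held 12 proteases (mostly cathepsins), 13 glycosidases, 5 sulfatases, 9 lipid enzymes and lipid-binding cofactors, 10 membrane proteins and 2 other luminal proteins. RNA was sequenced from 3T3-L1, a mouse preadipocyte line from embryonic fibroblasts, labelled wild type, whose cells turn into adipocytes under hormonal induction. The co-culture group (3 libraries) was grown below human umbilical cord mesenchymal stem cells, which sat in the upper chamber of a Transwell with pores of 0.4 µm. The alone group (3 libraries) had no human cells in the upper chamber. Both groups were kept for 72 h in the same adipogenic medium, which held 10 mg/L insulin, 0.5 mM IBMX to block phosphodiesterases, 1 µM of the steroid dexamethasone, 2 µM rosiglitazone to activate PPARγ, and 10% serum. The comparison asks how expression in the mouse cells differed with the human cells, which were kept apart from them by the membrane.

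Lysosomes are acidic organelles in which proteins, glycans and lipids delivered by endocytosis or autophagy are broken down. Most luminal hydrolases are made in the endoplasmic reticulum, tagged with mannose 6-phosphate and carried to the lysosome by sorting receptors, while the membrane proteins line the organelle, pump protons and export the products. Many of the genes are under the control of the MiT/TFE transcription factors, among them TFEB and TFE3, which bind an E-box with the core CACGTG, often flanked by T on one side or A on the other, in their promoters. In fibroblasts and preadipocytes several cathepsins and prosaposin are also secreted.

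Expression was given as FPKM, a fragment count divided by gene length and by library size. The library totals recovered from the values were 29603755 to 37612585 reads in co-culture and 36119750 to 38357563 reads alone. The first principal component of the 6 libraries held 68.4% of the variance. Libraries correlated at 0.9974 to 0.9982 within a group and at 0.9914 to 0.9928 between groups. Alone replicate 1 stood apart within its group, with a mean chi-square per gene of 11.0 and 14.3 to its fellow replicates, where every other within-group pair lay between 3.70 and 5.45. All 10 fibroblast and preadipocyte markers passed the expression filter. Of these 10, 4 were called higher in co-culture and 2 lower, where 13.9% and 17.9% of all tested genes were. Dlk1 (1.21-fold), Pdgfra (1.16-fold), Vim and Pdgfrb (1.12-fold each) were higher, and Thy1 (1.15-fold) and Col3a1 (1.12-fold) were lower. The summed level of the 10 was 4584 to 4658 FPKM in co-culture and 4501 to 4678 FPKM alone. A sum can hide such changes in both directions. The 6 mature adipocyte markers with a value summed to at most 0.143 FPKM in any library, and none passed the filter. Nothing in the labels tells if replicates were separate cultures, and p-values therefore measure only a spread between samples that may be technical.

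Promoter sequences are shown for 6 members whose windows contain the E-box with its flanking base, because the E-box is the known element of this gene family. They were picked after values were seen and include 5 genes called higher in co-culture and 1 not called. Of all 12 members with the flanked E-box, 7 were called higher (the 5 shown, Arsa and Gaa), 4 were not called (Mcoln1, Glb1, Lgmn and Sgsh) and 1 was not tested (Cln3). Each window runs from 250 bases before to 50 bases after a start site annotated by RefSeq on GRCm38.p6, the same assembly as mm10, and is written 5′ to 3′ on the strand of the gene. Capitals mark CACGTG on either strand, extended by the flanking base where it completes TCACGTG or its reverse complement.
Ctsa (chr2:164833523-164833822, plus strand): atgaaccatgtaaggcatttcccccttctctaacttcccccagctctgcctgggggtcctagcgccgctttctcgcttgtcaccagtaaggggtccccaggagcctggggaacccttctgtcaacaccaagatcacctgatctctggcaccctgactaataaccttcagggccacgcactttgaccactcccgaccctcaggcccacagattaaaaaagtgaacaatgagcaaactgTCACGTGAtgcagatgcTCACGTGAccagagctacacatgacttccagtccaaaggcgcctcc
Ctsd (chr7:142387778-142388077, minus strand): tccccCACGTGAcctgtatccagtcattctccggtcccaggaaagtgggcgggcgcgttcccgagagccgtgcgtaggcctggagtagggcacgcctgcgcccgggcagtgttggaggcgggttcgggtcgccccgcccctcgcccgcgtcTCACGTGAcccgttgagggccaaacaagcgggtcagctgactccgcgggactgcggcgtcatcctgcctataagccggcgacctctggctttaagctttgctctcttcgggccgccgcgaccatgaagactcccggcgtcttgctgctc
Naglu (chr11:101069844-101070143, plus strand): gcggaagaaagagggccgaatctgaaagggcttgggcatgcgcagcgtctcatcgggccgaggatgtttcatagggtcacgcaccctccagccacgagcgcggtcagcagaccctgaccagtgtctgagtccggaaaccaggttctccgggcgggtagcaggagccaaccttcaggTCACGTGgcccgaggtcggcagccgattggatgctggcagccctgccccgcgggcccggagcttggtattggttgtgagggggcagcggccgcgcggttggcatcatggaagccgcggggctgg
Gla (chrX:134600956-134601255, minus strand): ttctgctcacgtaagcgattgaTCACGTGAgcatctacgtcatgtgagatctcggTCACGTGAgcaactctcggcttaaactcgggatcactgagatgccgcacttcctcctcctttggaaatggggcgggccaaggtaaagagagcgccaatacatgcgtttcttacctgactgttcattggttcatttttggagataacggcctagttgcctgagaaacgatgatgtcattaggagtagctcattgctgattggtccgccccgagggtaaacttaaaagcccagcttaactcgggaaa
Lamp1 (chr8:13158911-13159210, plus strand): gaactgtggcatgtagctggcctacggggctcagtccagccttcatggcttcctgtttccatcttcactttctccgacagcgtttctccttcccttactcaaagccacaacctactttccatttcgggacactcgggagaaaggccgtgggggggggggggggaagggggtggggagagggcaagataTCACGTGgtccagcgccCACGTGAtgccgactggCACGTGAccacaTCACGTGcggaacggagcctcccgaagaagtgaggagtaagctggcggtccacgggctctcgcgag
Mcoln1 (chr8:3500269-3500568, plus strand): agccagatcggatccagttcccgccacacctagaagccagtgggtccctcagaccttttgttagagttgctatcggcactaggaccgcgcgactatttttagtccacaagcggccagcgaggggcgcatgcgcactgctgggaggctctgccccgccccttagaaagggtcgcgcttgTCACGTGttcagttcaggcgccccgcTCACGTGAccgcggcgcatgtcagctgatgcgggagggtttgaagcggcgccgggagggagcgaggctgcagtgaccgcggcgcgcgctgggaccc

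Lamp1 held 4 E-boxes, which began 61, 45, 28 and 15 bases before its start site, and Mcoln1 held 2, which began 71 and 45 bases before it. Windows were matched by symbol for 43 of the 51 members, 6 of which had more than 1 window. The 7-base form TCACGTG, on either strand, was found in at least 1 window of 12 of these 43 members (27.9%). It was found for 1160 of all 27025 genes with a window (4.29%) and for 607 of the 8150 tested genes with a window (7.45%). The 6-base core CACGTG, which lies inside the 7-base form, was found for 14 of 43 members (32.6%), for 2187 of the 27025 genes (8.09%) and for 992 of the 8150 tested genes (12.2%). Among members with a window, 7 of 20 called higher in co-culture (35%) and 4 of 17 not called (23.5%) held the 7-base form. These counts describe letters in a window of 300 bases, no test was made of them, and Psap, Hexa and Man2b1, which had some of the larger rises, held neither form there.

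**Figure D1:**
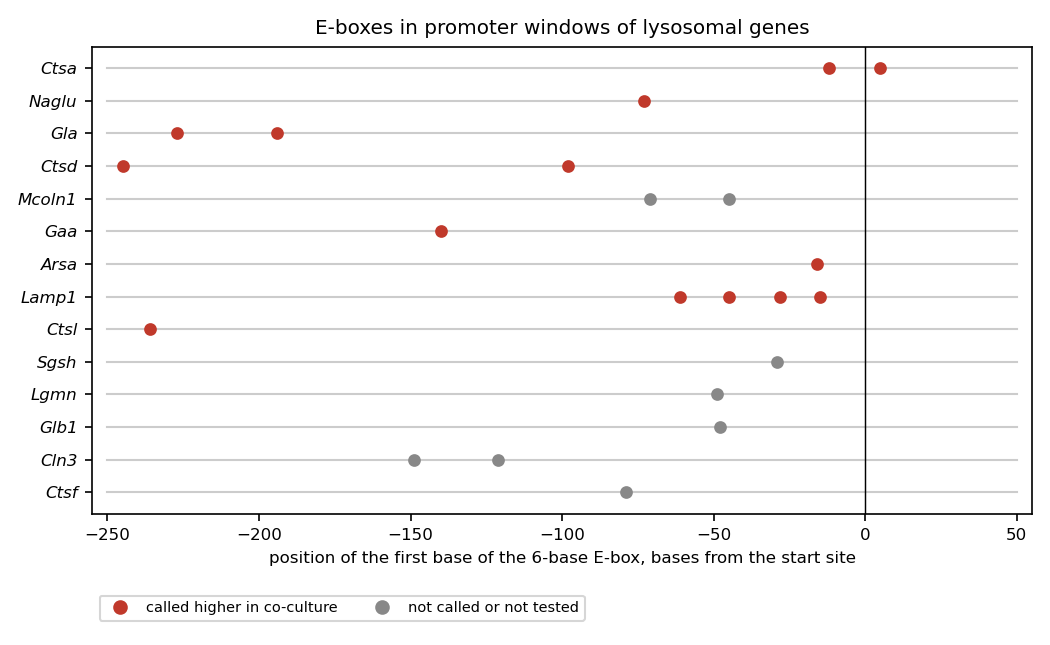
Position of each CACGTG match (points) along the promoter windows of the 14 members that hold one, in bases from the annotated start site, with genes ordered by their log2 change from highest to lowest and untested genes last. Red points belong to genes called higher in co-culture and grey points to genes not called or not tested. The matches of Lamp1, Mcoln1, Naglu, Arsa, Sgsh, Lgmn and Glb1 lie within 100 bases before the start site, and those of Gla, Gaa and Ctsl farther away.

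Many lysosomal genes were higher in co-culture, by small amounts, and 1 was lower. The summed level of the 50 genes was 4110, 4225 and 4107 FPKM in co-culture replicates 1 to 3, against 3788, 3725 and 3652 FPKM in alone replicates 1 to 3. The groups did not overlap, and the members took 1.015 ± 0.0200% of the FPKM sum in co-culture and 0.9145 ± 0.0109% alone (SD, n = 3 each). Expression was compared with limma on log2(FPKM + 1), a scale on which the change of low genes is understated, and a gene was called when its Benjamini-Hochberg adjusted p over all 10055 tested genes was below 0.05. Of the 46 members with a mean of at least 1 FPKM, which were the ones tested, 21 were called higher in co-culture (45.7%) and 1 was called lower (2.17%). Over all tested genes, 13.9% were called higher and 17.9% lower, or 31.8% in either direction, and 42.4% had an unadjusted limma p below 0.05. With limma-voom, run on the recovered reads, Ppt2 and Npc1 were the members called lower. The median log2 change of the 46 members was 0.12, against −0.0037 over all tested genes, and 38 of the 46 (82.6%) were above 0, against 49.1% of all tested genes. The libraries of the 2 groups did not overlap for 26 members that were higher and 2 that were lower, where 21.3% of all tested genes did not overlap and were higher and 24.8% did not overlap and were lower. Members given by library below were mostly named by smallest p, so separation of their libraries by group adds no independent support. In bulk RNA, more cells of a type and more RNA per cell cannot be told apart.

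The size of the changes was modest. The log2 changes of the 46 members ran from −0.16 for Ppt2 to 0.32 for Man2b1, and the middle 50% of them lay between 0.04 and 0.18, while the middle 50% of all tested genes lay between −0.11 and 0.09. Of the 22 calls, 12 were kept when each library was left out in turn and 10 were lost without at least 1 library. The count of 21 higher members was 13 without alone replicate 3, 22 without alone replicate 1, and 12 when no expression filter was used. The 1 lower member, Ppt2, was not called without co-culture replicate 1 or 2 or alone replicate 2, and without alone replicate 1 there were 2, Ppt2 and Npc1.

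**Figure D2:**
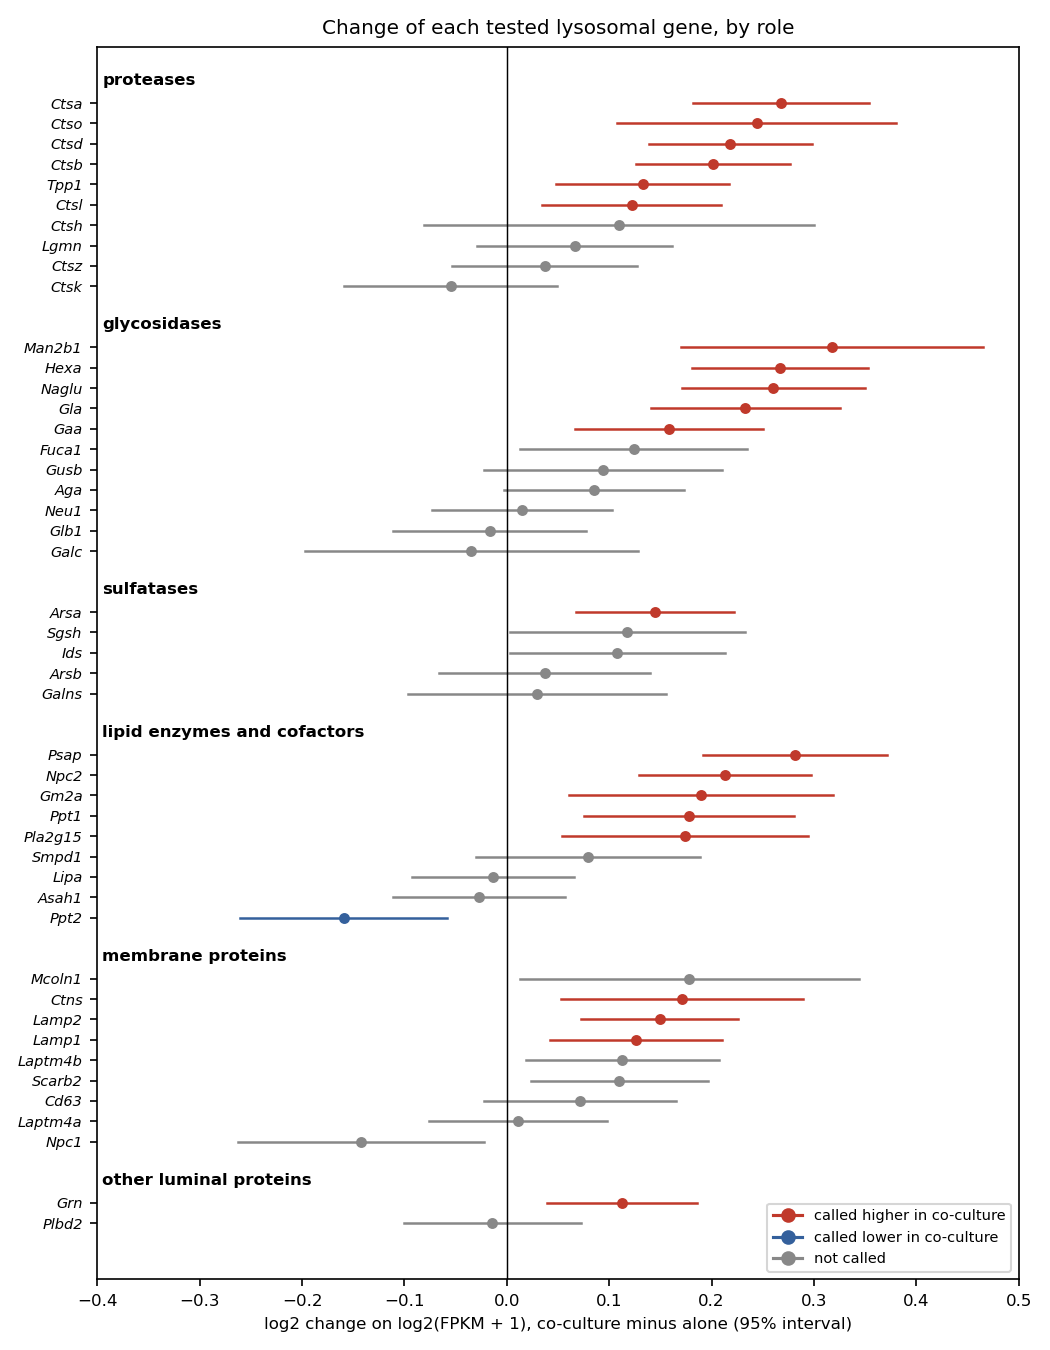
Log2 change (points, co-culture minus alone on log2(FPKM + 1)) with its 95% interval (lines) for each of the 46 tested members, grouped by role and ordered by size within a role. Red marks the 21 genes called higher in co-culture, blue the 1 called lower and grey those not called. Most points lie right of 0, and Ppt2 and Npc1 lie farthest left.

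Among the proteases, 6 of 10 tested genes were higher in co-culture (60%) and 0 were lower (limma adjusted p below 0.05). Over all tested genes, 13.9% were higher and 17.9% lower. An unadjusted p below 0.05 was found for 6 of the 10, or 60%, against 42.4% of all tested genes. Ctsa encodes cathepsin A, a serine carboxypeptidase that protects lysosomal β-galactosidase and sialidase in a complex. It had 60.8, 60.5 and 62.3 FPKM in co-culture replicates 1 to 3, against 49.9, 53.2 and 49.0 FPKM in alone replicates 1 to 3. The groups did not overlap, and Ctsa was 1.21-fold higher in co-culture (log2 change 0.27, SE 0.0389, limma adjusted p = 6.14e-04). Ctsd, the main aspartic protease of lysosomes, had 336, 335 and 331 FPKM in co-culture, against 296, 287 and 278 FPKM alone. All co-culture libraries were above all alone libraries, with a 1.16-fold difference (log2 change 0.22, SE 0.0360, limma adjusted p = 0.00130). The cysteine protease gene Ctsb had 248, 252 and 252 FPKM in co-culture, against 223, 219 and 212 FPKM alone. It too was separated, at 1.15-fold higher (log2 change 0.20, SE 0.0341, limma adjusted p = 0.00150). Ctsa lies on chromosome 2 from 164832872 to 164841032, Ctsd on chromosome 7 from 142375910 to 142387827 and Ctsb on chromosome 14 from 63122462 to 63145923 (mm10).

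Ctso, a cysteine cathepsin with a low level, had 7.36, 7.27 and 7.07 FPKM in co-culture, against 6.41, 5.34 and 6.15 FPKM alone. No library of the alone group reached the co-culture range, and the difference was 1.21-fold (log2 change 0.24, SE 0.0617, limma adjusted p = 0.0129). Ctsl, an endopeptidase that is also secreted and the second most abundant member per length, had 521, 516 and 519 FPKM in co-culture, against 501, 466 and 464 FPKM alone. Alone replicate 1 stood nearest to the co-culture libraries, and Ctsl was 1.09-fold higher in co-culture (log2 change 0.12, SE 0.0396, limma adjusted p = 0.0380). That call was lost without any library but alone replicate 1, at limma adjusted p of 0.0840 to 0.134. Tpp1, a tripeptidyl peptidase, was 1.10-fold higher (log2 change 0.13), a call lost without co-culture replicate 2, co-culture replicate 3 or alone replicate 3 (limma adjusted p 0.0507 to 0.0773).

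The remaining tested proteases did not pass. The log2 change was 0.07 for Lgmn, the asparaginyl endopeptidase (95% interval −0.03 to 0.16), 0.11 for the aminopeptidase Ctsh (−0.08 to 0.30), 0.04 for the carboxypeptidase Ctsz (−0.05 to 0.13) and −0.05 for Ctsk (−0.16 to 0.05), the collagen-degrading cathepsin of osteoclasts. Ctsc, a dipeptidyl peptidase that activates serine proteases of immune cells, had 0 reads in co-culture and 2 reads summed over the alone libraries, under a floor of 3 reads, so no fold was computed.

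**Figure D3:**
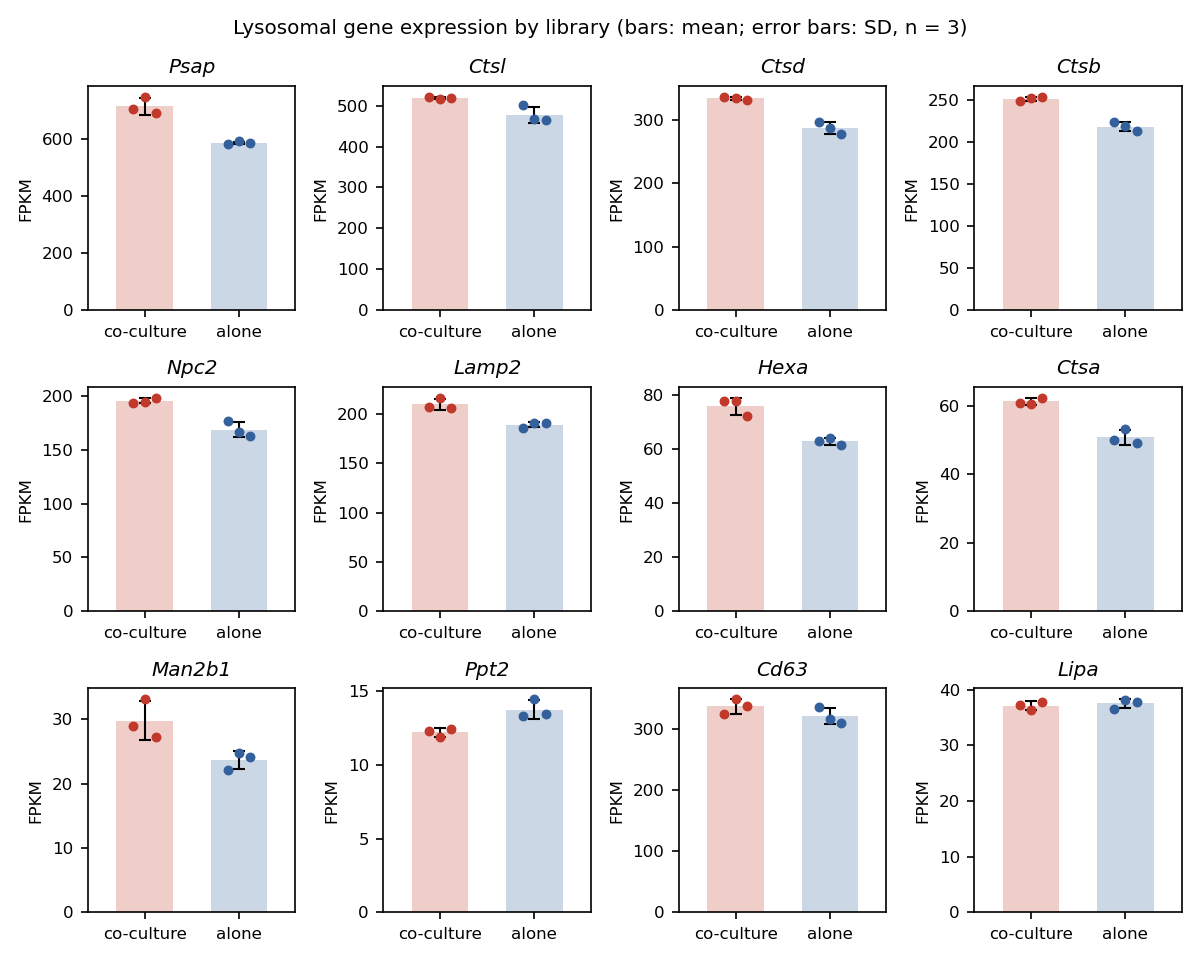
FPKM of 12 members in each library (points) with the group mean (bars) and SD (error bars, n = 3), co-culture in red and alone in blue. The groups do not overlap for Psap, Ctsl, Ctsd, Ctsb, Npc2, Lamp2, Hexa, Ctsa, Man2b1 and Ppt2, of which only Ppt2 is lower in co-culture, and they overlap for Cd63 and Lipa. The 12 are a selection and do not show how often members separate. Of the 46 tested members, 26 did not overlap and were higher and 2 did not overlap and were lower. Over all tested genes the shares were 21.3% and 24.8%.

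Of the 11 tested glycosidases, 5 were higher in co-culture (45.5%) and 0 were lower, against 13.9% and 17.9% of all tested genes. An unadjusted limma p below 0.05 was found for 6 of the 11 (54.5%), against 42.4% of all tested genes. Hexa encodes the α subunit of β-hexosaminidase, which removes hexosamine from gangliosides. It had 77.9, 77.8 and 72.3 FPKM in co-culture, against 63.0, 64.1 and 61.7 FPKM alone. These groups were well separated, at 1.21-fold higher in co-culture (log2 change 0.27, SE 0.0389, limma adjusted p = 6.21e-04). Naglu, the α-N-acetylglucosaminidase of heparan sulfate breakdown, had 16.7, 16.7 and 17.5 FPKM in co-culture, against 13.9, 14.3 and 13.7 FPKM alone. Its libraries differed little within a group, and it was 1.21-fold higher (log2 change 0.26, SE 0.0405, limma adjusted p = 9.31e-04). Gla, α-galactosidase A, had 22.9, 24.1 and 22.1 FPKM in co-culture, against 19.0, 19.6 and 19.7 FPKM alone. No alone library reached the lowest co-culture library, and Gla was 1.18-fold higher (log2 change 0.23, SE 0.0417, limma adjusted p = 0.00205). Hexa lies on chromosome 9 from 59539540 to 59565109, Naglu on chromosome 11 from 101070090 to 101077672 and Gla on chromosome X from 134588169 to 134601005.

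Man2b1, the lysosomal α-mannosidase of glycoprotein breakdown, had 29.0, 33.2 and 27.3 FPKM in co-culture, against 22.2, 24.7 and 24.1 FPKM alone. Co-culture replicate 2 was the highest, and all 3 co-culture libraries were above the alone libraries. It had the highest log2 change of the 46 tested members, at 0.32 (SE 0.0667, 1.26-fold higher, limma adjusted p = 0.00492). Gaa, which degrades glycogen, was 1.12-fold higher (log2 change 0.16), but not called without co-culture replicate 3 or alone replicate 3 (limma adjusted p 0.0568 and 0.0633). The α-fucosidase gene Fuca1 had a log2 change of 0.12 (95% interval 0.01 to 0.23) and did not pass (limma adjusted p = 0.0835). Aga at 0.09 and the β-glucuronidase gene Gusb at 0.09 did not pass either, although their libraries did not overlap. The log2 change of the sialidase gene Neu1 was 0.01 (−0.07 to 0.10), that of the β-galactosidase gene Glb1 was −0.02 (−0.11 to 0.08) and that of Galc, the galactosylceramidase, was −0.03 (−0.20 to 0.13). Cathepsin A, β-galactosidase and sialidase form 1 complex, and of their genes only Ctsa was called. Manba (0.553 FPKM in co-culture and 0.554 FPKM alone) and Idua (0.816 and 0.709 FPKM), a β-mannosidase and an iduronidase, were below the filter.

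The sulfatases were measured at 5.16 to 47.1 FPKM as group means. Arsa, which desulfates the myelin lipid sulfatide, was the 1 of 5 that was called higher (20%, against 13.9% of all tested genes), and 0 were lower. An unadjusted p below 0.05 was found for 3 of the 5, or 60%, against 42.4% of all tested genes. It had 46.0, 48.5 and 46.9 FPKM in co-culture, against 42.8, 42.8 and 42.1 FPKM alone. The groups did not overlap, at 1.11-fold higher (log2 change 0.14, SE 0.0350, limma adjusted p = 0.0105). Ids (log2 change 0.11, limma adjusted p = 0.107) and Sgsh (0.12, limma adjusted p = 0.110), which act on heparan sulfate, were higher in all 3 co-culture libraries than in any alone library but did not pass. For Arsb and Galns, which desulfate chondroitin and keratan sulfate chains, the changes were 0.04 (95% interval −0.07 to 0.14) and 0.03 (−0.10 to 0.16).

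Among the lipid enzymes and their cofactors, 5 of 9 were higher (55.6%) and 1 was lower (11.1%), against 13.9% and 17.9% of all tested genes. An unadjusted limma p below 0.05 was found for 6 of the 9, or 66.7%, against 42.4% of all tested genes. Psap encodes prosaposin, the precursor of the saposins that present sphingolipids to their hydrolases, and was the most abundant member per length. It had 704, 749 and 691 FPKM in co-culture, against 583, 592 and 587 FPKM alone. The alone libraries lay close together and the co-culture libraries, with replicate 2 the highest, were all above them. Psap was 1.22-fold higher and had the smallest p of the members (log2 change 0.28, SE 0.0405, limma adjusted p = 5.77e-04). Npc2, the soluble cholesterol-binding protein that hands cholesterol to Npc1, had 193, 194 and 198 FPKM in co-culture, against 176, 167 and 162 FPKM alone. It was 1.16-fold higher with no overlap (log2 change 0.21, SE 0.0380, limma adjusted p = 0.00201). Psap lies on chromosome 10 from 60277628 to 60302600 and Npc2 on chromosome 12 from 84754559 to 84773112.

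The palmitoyl-protein thioesterases Ppt1 and Ppt2 were called in opposite directions. Ppt1, which removes fatty acids from proteins, had 17.95, 16.2 and 16.4 FPKM in co-culture, against 14.9, 14.5 and 15.0 FPKM alone. Its groups were separated, and Ppt1 was 1.14-fold higher (log2 change 0.18, SE 0.0462, limma adjusted p = 0.0148), a call lost without co-culture replicate 1 or alone replicate 2 (limma adjusted p 0.0515 and 0.0623). Ppt2, a related thioesterase, had 12.3, 11.9 and 12.4 FPKM in co-culture, against 13.3, 14.5 and 13.5 FPKM alone. It was 1.13-fold lower in co-culture (log2 change −0.16, SE 0.0458, limma adjusted p = 0.0231), a call lost without co-culture replicate 1 or 2 or alone replicate 2 (limma adjusted p 0.0522 to 0.0914). The ganglioside activator Gm2a (1.19-fold higher, log2 change 0.19) and the phospholipase gene Pla2g15 (1.13-fold higher, 0.17) were called. The Gm2a call was lost without co-culture replicate 2 or 3 or alone replicate 1 or 3 (limma adjusted p 0.0650 to 0.1002). That of Pla2g15, whose libraries overlapped, was lost without co-culture replicate 1 or 3 or alone replicate 2 or 3 (limma adjusted p 0.0802 to 0.113). The 5 higher genes of this role numbered 3 without co-culture replicate 1 or 3 or alone replicate 2 or 3. The enzymes of sphingomyelin, ceramide and cholesteryl ester breakdown did not pass, with log2 changes of 0.08 for Smpd1 (95% interval −0.03 to 0.19), −0.03 for Asah1 (−0.11 to 0.06) and −0.01 for Lipa (−0.09 to 0.07). Lipa, the acid lipase of lysosomes, had 37.4, 36.4 and 37.8 FPKM in co-culture, against 36.6, 38.2 and 37.8 FPKM alone, so the groups lay over each other.

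Membrane proteins included 3 of 9 tested genes called higher (33.3%) and 0 called lower, against 13.9% and 17.9% of all tested genes. An unadjusted p below 0.05 was found for 7 of the 9 (77.8%, against 42.4% of all tested genes), of which Npc1 was lower in co-culture and the other 6 higher. Lamp2, a heavily glycosylated protein of the lysosomal membrane, had 207, 217 and 206 FPKM in co-culture, against 186, 191 and 190.4 FPKM alone. The groups were separated, at 1.11-fold higher (log2 change 0.15, SE 0.0346, limma adjusted p = 0.00837). Its paralogue Lamp1 had 308, 329 and 309 FPKM in co-culture, against 288, 294 and 284 FPKM alone. It was 1.09-fold higher (log2 change 0.13, SE 0.0380, limma adjusted p = 0.0282), and the call was lost without any co-culture library or without alone replicate 3 (limma adjusted p 0.0514 to 0.110). Ctns, the exporter of cystine, had 8.78, 7.73 and 8.57 FPKM in co-culture, against 7.35, 7.43 and 7.14 FPKM alone. Co-culture replicate 2 lay close to the alone libraries, and Ctns was 1.14-fold higher (log2 change 0.17, SE 0.0536, limma adjusted p = 0.0329), a call lost without any library but co-culture replicate 2 (limma adjusted p 0.0525 to 0.119). Lamp1 lies on chromosome 8 from 13159161 to 13175338, Lamp2 on chromosome X from 38399647 to 38456460 and Ctns on chromosome 11 from 73183133 to 73199115. The 3 higher membrane proteins numbered 1 without co-culture replicate 1 or alone replicate 3, and 5 under median-ratio scaling or when the recovered reads were tested with limma-voom.

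The tetraspanin gene Cd63, the most abundant membrane protein per length, had 324, 349 and 338 FPKM in co-culture, against 336, 316 and 311 FPKM alone. The groups overlapped and the log2 change of 0.07 was not called (95% interval −0.02 to 0.17). Npc1, which exports cholesterol from lysosomes and takes it from Npc2, had 11.8, 11.99 and 11.5 FPKM in co-culture, against 12.4, 12.6 and 14.3 FPKM alone. All its co-culture libraries were below its alone libraries, but its log2 change of −0.14 was not called (limma adjusted p = 0.0701), although it was called lower without alone replicate 1 and with limma-voom. Scarb2, which carries β-glucocerebrosidase to lysosomes, was just outside the threshold at a log2 change of 0.11 (limma adjusted p = 0.0540). Laptm4b (0.11, limma adjusted p = 0.0670) and the calcium channel gene Mcoln1 (0.18, limma adjusted p = 0.0948) did not pass, and Laptm4a, at 177 to 179 FPKM in co-culture and 172 to 187 FPKM alone, had a log2 change of 0.01 (95% interval −0.08 to 0.10). Cln3 was below the filter, with 20 reads summed over the co-culture libraries and 27 over the alone libraries.

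Of the other luminal proteins, Grn encodes progranulin, which is both secreted and cleaved in lysosomes. It had 144.9, 142.9 and 145 FPKM in co-culture, against 136, 135 and 129.9 FPKM alone. The groups did not overlap, at 1.08-fold higher (log2 change 0.11, SE 0.0332, limma adjusted p = 0.0256), and the call was lost without co-culture replicate 1 or 3 or alone replicate 2 or 3 (limma adjusted p 0.0519 to 0.0892). Plbd2, a phospholipase B-like protein, was at a log2 change of −0.01 (95% interval −0.10 to 0.07).

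**Figure D4:**
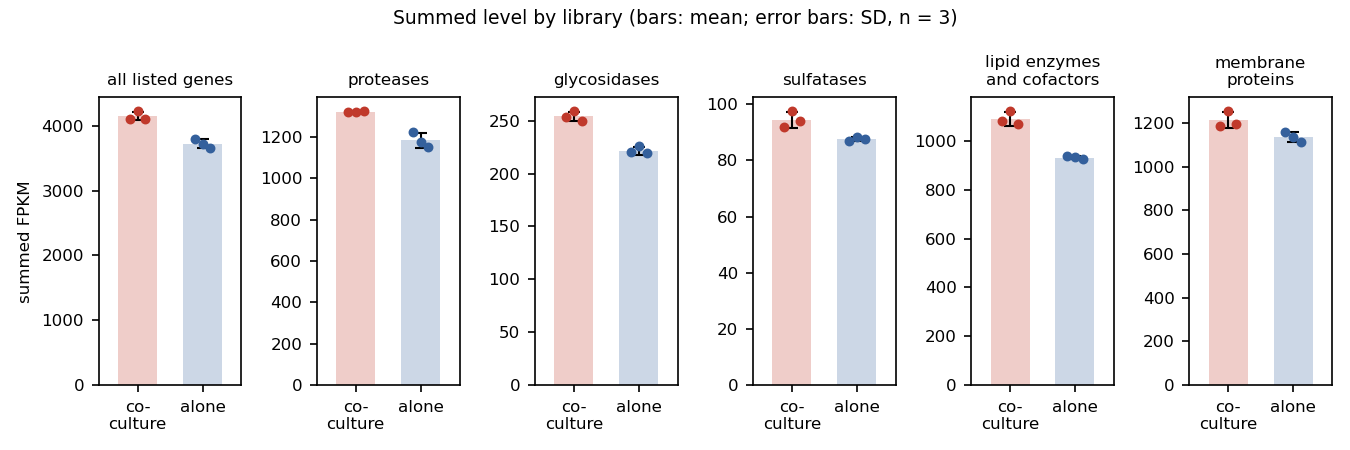
Summed FPKM per library (points) of all 50 genes with a value and of 5 roles, with the mean (bars) and SD (error bars, n = 3), co-culture in red and alone in blue. Each sum is higher in every co-culture library than in any alone library, with 1323 ± 2.30 FPKM in co-culture and 1184 ± 37.2 FPKM alone for proteases, 254 ± 4.56 and 222 ± 3.82 for glycosidases, 94.5 ± 2.85 and 87.6 ± 0.841 for sulfatases, 1091 ± 28.3 and 932 ± 5.89 for lipid enzymes and cofactors, and 1214 ± 35.9 and 1137 ± 21.6 for membrane proteins.

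The roles differed little in their medians. The median log2 change was 0.13 for proteases, 0.12 for glycosidases, 0.11 for sulfatases, 0.17 for lipid enzymes and cofactors and 0.11 for membrane proteins, and differences between roles were not tested. A few highly expressed genes made up most of each sum. Proteases were dominated by Ctsl, Ctsd and Ctsb, and the lipid group by Psap and Npc2. In order of level per length over the 6 libraries the first members were Psap, Ctsl, Cd63, Ctsd, Lamp1, Ctsb and Lamp2. Over the 6 libraries the ranges of Cd63, Ctsd and Lamp1 overlapped, as did those of Ctsb and Lamp2, while the other neighbours in this order did not overlap.

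Genes outside the list that make, sort, inhibit or complement these proteins were read from lists drawn up by function. These lists too were chosen with earlier results of these data known. Their genes given by library were named by smallest p, so separation of those libraries by group adds no independent support. Of 20 other lysosomal hydrolases tested, 9 were higher (45%) and 0 lower, against 13.9% and 17.9% of all tested genes. Their median log2 change was 0.11. The 9 numbered 4 without co-culture replicate 3 or with no expression filter, and 5 without alone replicate 3. An unadjusted limma p below 0.05, in either direction, was found for 10 of the 20 (50%), near the 42.4% of all tested genes. Prcp, a carboxypeptidase, had 12.5, 11.9 and 13.4 FPKM in co-culture, against 9.64, 10.3 and 10.9 FPKM alone (1.23-fold higher, log2 change 0.27, limma adjusted p = 0.00445). Hyal1, a hyaluronidase, had 4.18, 5.10 and 4.92 FPKM in co-culture, against 3.57, 3.60 and 3.63 FPKM alone (log2 change 0.31, limma adjusted p = 0.00503). Dnase2a, the acid DNase, had 6.23, 6.70 and 6.19 FPKM in co-culture, against 5.04, 5.53 and 4.79 FPKM alone (log2 change 0.27, limma adjusted p = 0.00605). No alone library reached a co-culture library for any of these 3 genes. Both cystatins above the filter were higher, which encode secreted and cytosolic inhibitors of cysteine cathepsins. The secreted Cst3 had 804, 795 and 806 FPKM in co-culture, against 726, 676 and 661 FPKM alone (1.17-fold higher, log2 change 0.22, limma adjusted p = 0.00311). The cytosolic Cstb had 180.2, 186 and 178 FPKM in co-culture, against 173, 159 and 161 FPKM alone (log2 change 0.15, limma adjusted p = 0.0189). Its call was lost without co-culture replicate 2 or alone replicate 2 or 3 (limma adjusted p 0.0600 to 0.0762).

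Subunits of the V-ATPase, the pump that acidifies lysosomes, were called in both directions, 2 of 17 higher and 2 lower (11.8% each way), which is below the 13.9% and 17.9% of all tested genes, with a median of 0.0032. Atp6v0d1, of the membrane sector, had 61.8, 64.8 and 61.3 FPKM in co-culture, against 57.2, 59.1 and 53.6 FPKM alone (log2 change 0.14, limma adjusted p = 0.0260). Atp6v1c1, of the cytosolic sector, had 25.7, 25.6 and 24.3 FPKM in co-culture, against 28.4, 27.2 and 28.9 FPKM alone (log2 change −0.16, limma adjusted p = 0.0145). Atp6v1b2, also cytosolic, had 60.1, 59.8 and 60.2 FPKM in co-culture, against 63.9, 66.0 and 64.4 FPKM alone (log2 change −0.11, limma adjusted p = 0.0281). The groups did not overlap for any of the 3. The other higher subunit, Atp6v0a1 of the membrane sector, had a log2 change of 0.12. These calls depended on single libraries, with limma adjusted p of 0.0538 to 0.0912 for Atp6v0d1 (without co-culture replicate 1 or 2 or alone replicate 3), 0.0527 to 0.0646 for Atp6v1c1 (without replicate 3 of either group), 0.0564 to 0.0985 for Atp6v1b2 (without any library but alone replicate 1) and 0.0899 to 0.112 for Atp6v0a1 (without any library but alone replicate 2).

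Of 17 tested genes of mannose 6-phosphate tagging and sorting, 3 were higher (17.6%, near the 13.9% of all tested genes) and 0 lower. The same share, 17.6%, had an unadjusted p below 0.05, against 42.4% of all tested genes. Gnptab, a subunit of the phosphotransferase that makes the tag, had 31.9, 32.3 and 30.8 FPKM in co-culture, against 27.5, 29.8 and 28.8 FPKM alone (log2 change 0.14, limma adjusted p = 0.0250). Ap3b1, of the AP-3 adaptor that sorts lysosomal membrane proteins, had 13.9, 14.5 and 13.997 FPKM in co-culture, against 12.69, 12.68 and 12.95 FPKM alone (log2 change 0.14, limma adjusted p = 0.0247). Ap3d1, of the same adaptor, had 17.7, 18.1 and 17.9 FPKM in co-culture, against 16.2, 17.0 and 15.1 FPKM alone (log2 change 0.15, limma adjusted p = 0.0338). All 3 were separated by group. Each of these calls was lost when some library was left out. Gnptab was lost without co-culture replicate 1 or 2 or alone replicate 1 or 3 (limma adjusted p 0.0554 to 0.0782), Ap3b1 without any co-culture library or alone replicate 2 (0.0529 to 0.0824) and Ap3d1 without any library but alone replicate 2 (0.0525 to 0.119). The sorting receptor genes M6pr and Igf2r, at log2 changes of −0.05 and 0.07, were not called.

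Among 21 other lysosomal transporters, channels and membrane proteins, 2 were higher (9.52%) and 1 lower (4.76%), below the 13.9% and 17.9% of all tested genes, with a median of −0.0079. The 2 higher ones numbered 4 under median-ratio scaling and with limma-voom. The channel gene Tpcn2 had 23.5, 21.2 and 22.2 FPKM in co-culture, against 18.5, 17.3 and 20.4 FPKM alone (log2 change 0.24, limma adjusted p = 0.0105). The amino acid transporter gene Slc36a1 had 3.27, 2.97 and 3.20 FPKM in co-culture, against 2.34, 2.55 and 2.71 FPKM alone (log2 change 0.23, limma adjusted p = 0.0167). Mfsd8, a membrane protein mutated in a neuronal storage disease, had 3.38, 3.09 and 3.11 FPKM in co-culture, against 4.16, 3.49 and 3.93 FPKM alone (log2 change −0.21, limma adjusted p = 0.0311). Each of these genes was separated by group. Slc36a1 was not called without co-culture replicate 1 or 3 (limma adjusted p 0.0550 and 0.0589), and Mfsd8 not without co-culture replicate 2 or 3 or alone replicate 1 or 3 (0.0846 to 0.0922).

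Pooled over these lists, cystatins included, 18 of 77 tested genes were higher (23.4%) and 3 lower (3.90%). Over all tested genes the shares were 13.9% and 17.9%. An unadjusted limma p below 0.05 was found for 27 of the 77 (35.1%), against 42.4% of all tested genes. The 18 numbered 6 with no expression filter, 9 when co-culture replicate 2 or 3 or alone replicate 3 was left out, and 10 when co-culture replicate 1 was. The 3 lower ones numbered 0 without co-culture replicate 3 or alone replicate 3 and 2 without co-culture replicate 1 or alone replicate 2.

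**Figure D5:**
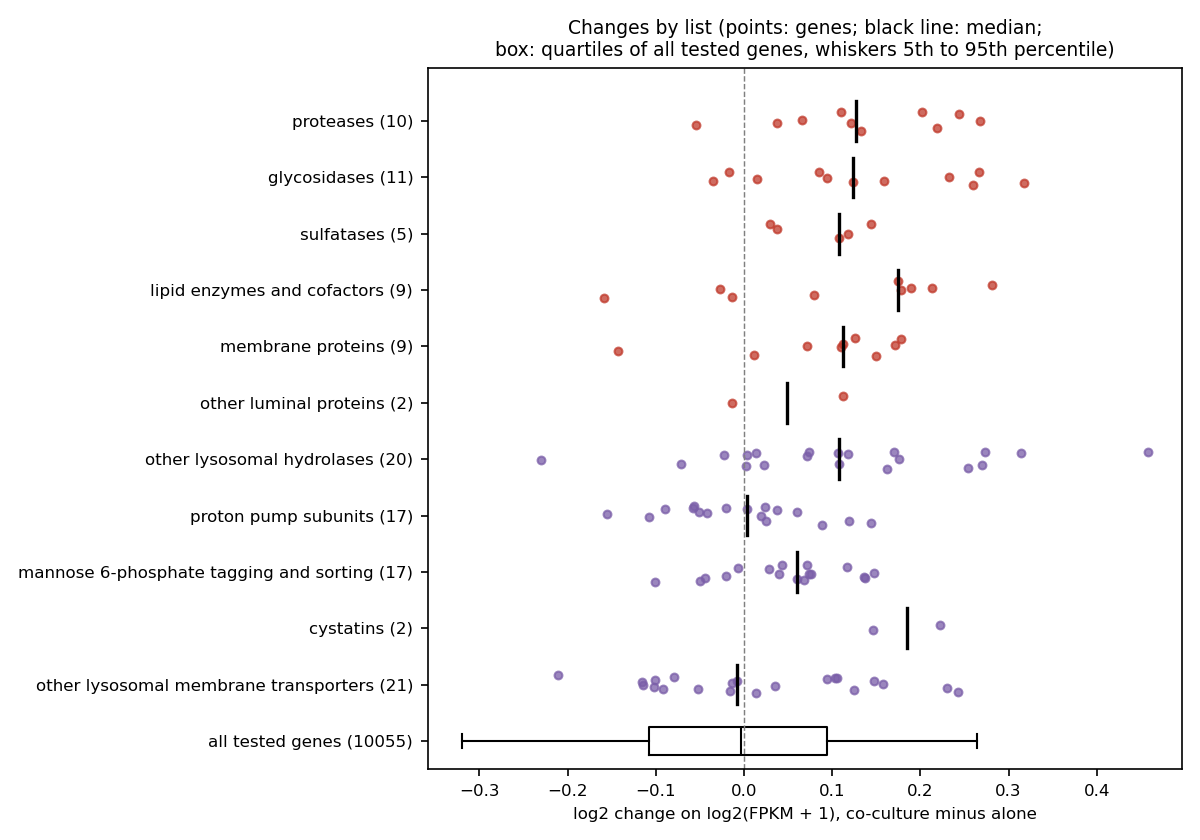
Log2 change (co-culture minus alone on log2(FPKM + 1)) of each tested gene (points) by role or list, with the number of genes in brackets and the median as a black line. The lowest row is a box of the quartiles of all 10055 tested genes with whiskers at the 5th and 95th percentiles. Medians of the 5 main roles lie between 0.11 and 0.17, and those of proton pump subunits and other transporters near 0.

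The transcription factors that bind the E-box were low or moderate in level. Tfeb was at 0.435 ± 0.0634 FPKM in co-culture and 0.459 ± 0.0297 FPKM alone, below the filter. Tfe3 had 12.3, 12.7 and 12.4 FPKM in co-culture, against 12.4, 13.7 and 13.2 FPKM alone, and its log2 change of −0.06 was not called (95% interval −0.17 to 0.04). Mitf was at 1.94 ± 0.180 FPKM in co-culture and 1.70 ± 0.0576 FPKM alone (log2 change 0.12, limma adjusted p = 0.181), and Tfec was at 0.00395 FPKM in co-culture and 0.00193 FPKM alone. Flcn, folliculin, which keeps TFEB and TFE3 out of the nucleus in fed cells, was called lower (log2 change −0.16, limma adjusted p = 0.0419), a call lost without co-culture replicate 1 or 3 or alone replicate 2 or 3 (limma adjusted p 0.0953 to 0.125). These values are levels of mRNA, and the activity of the factors was not measured.

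Lysosomal genes are also high in macrophages, so markers of those cells were read. Of 14 macrophage markers, 12 were below the filter in the mean of the 6 libraries, and Csf1r, Ptprc, Adgre1 and Itgam had 1 to 16 reads summed over each group. Among the 12 below the filter, the libraries of 3 markers did not overlap. Over all tested genes, which are above the filter, 21.3% did not overlap and were higher and 24.8% did not overlap and were lower. Separation of so few markers is therefore no sign of a change in such cells. Lyz2 was lower in co-culture, with 47 reads in co-culture and 149 reads alone summed over the group, as was Laptm5, with 0 reads in co-culture and 8 reads alone. Mpeg1 was higher, with 141 reads in co-culture and 96 reads alone. The list summed to 15.6 to 19.2 FPKM in co-culture and 17.5 to 21.1 FPKM alone, mostly from Cd14 and Cd68, neither of which was called. The part of such cells in the lysosomal changes was not tested. Endothelial and epithelial markers summed to at most 0.136 FPKM in any library.

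Some members share exon bases with another gene in the GENCODE M21 annotation, and the strand setting of the counting is not stated, so that reads of antisense partners cannot be told apart from theirs. For 7 members more than 10% of the exon bases overlap a gene on the opposite strand. Among the called ones of these 7, the partners with a value were at lower levels. Pltp and Neurl2, which overlap 17.4% of the exon bases of Ctsa, were at 7.65 and 1.31 FPKM in co-culture and 7.40 and 0.966 FPKM alone. Fdft1, which overlaps Ctsb, was at 4.72 FPKM in co-culture and 3.99 FPKM alone, and Tmem202, which overlaps Hexa, was at 0.313 FPKM in co-culture and 0.293 FPKM alone. C230037L18Rik, which overlaps Arsa, was at 1.61 FPKM in co-culture and 1.27 FPKM alone and was itself called higher (log2 change 0.20, limma adjusted p = 0.0437). For Ctsl, 26.8% of the exon bases overlap a transcript that is not analysed here. For Ctsd and Ppt2, 34.4% and 36.6% of the exon bases also belong to a GENCODE transcript on the same strand, whose reads are not analysed here. Smaller overlaps on the opposite strand also occur. Cap1, which overlaps 3.51% of the exon bases of Ppt1, was at a higher level than Ppt1, with 65.95 FPKM in co-culture and 63.77 FPKM alone. It was not called (log2 change 0.05, limma adjusted p = 0.304). Rmc1, which shares exon bases with Npc1, was at 6.21 FPKM in co-culture and 7.38 FPKM alone. It was called lower (log2 change −0.22, limma adjusted p = 0.0117). Apobr, which shares exon bases with Cln3, was at 2.62 FPKM in co-culture and 3.86 FPKM alone (log2 change −0.43, limma adjusted p = 0.00774).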

How the data were processed

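RNA was measured in 6 libraries of 3T3-L1 cells, 3 in co-culture and 3 alone, grouped by sample title. TRIzol extraction and the VAHTS Universal V6 library kit are given per the labels' protocols. The deposited values are FPKM computed by the authors. Tools in the submitters' processing notes are fastp, HISAT2 and HTSeq, and the build is mm10. Not given in the sources used here: annotation, strand setting and treatment of any human reads. Whole reads were recovered from ratios of low FPKM values (21436 of 21436 genes, tolerance 1e-06 on the ratios), with the scale set by the 1545 bp of mitochondrial cytochrome c oxidase subunit 1. Library totals were 29603755 to 38357563 reads, and floors of 3 reads cover counting error only.

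limma 3.58.1 in R 4.3.3 (lmFit, eBayes with a trend) was fitted, without a replicate block, to log2(FPKM + 1) of 10055 genes whose mean reached 1 FPKM, as co-culture minus alone. The fit was also run on simulated data. No outcome of that run is given here, and it does not show how the fit behaves on these data. Fold changes are ratios of mean FPKM. Genes were named by smallest p (up to 4 per role, 3 per related list) and by highest level per role. Lipa and Npc1 were given by library, and Atp6v0a1 and Flcn were named, after their values were seen. The 51 genes and all lists were chosen with earlier results of these data known. Alternatives were a pseudocount of 0.1, no filter or a filter at 5 FPKM, median-ratio and TPM scaling, eBayes with no trend, limma-voom on recovered reads, a replicate block and each library left out. Coordinates and promoters are RefSeq's on GRCm38.p6.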

Additional observations from a re-analysis of the deposited data

How the results depend on the processing

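The members' median log2 change was above 0 in every setting run, from 0.109 to 0.126. With no filter, 12 members were higher and 0 lower, made up in part of 3 glycosidases, 2 lipid genes and 1 membrane protein, with 0 lipid genes lower and 6 other lysosomal genes higher. In that setting 21436 genes were tested. Membrane proteins called higher numbered 5 under median-ratio scaling and 5 with limma-voom, which also called 2 members lower, 1 of them a membrane protein, and 14.8% of all tested genes higher. The median log2 change of members was 0.12 under a pseudocount of 0.1 and with limma-voom (0.1241 and 0.1242). With each library left out, the ranges were 925 (without co-culture replicate 3) to 1419 for all genes called higher, 13 to 22 for members higher and 0 to 2 lower, 3 to 4 and 0 to 1 for lipid genes, 1 to 4 and 0 to 1 for membrane proteins, 9 to 15 and 0 to 3 for other lysosomal genes, and 0.11 to 0.13 for the members' median. The cause of these moves was not tested. Changes near 0 that were not called turned sign without 1 library, with ranges of −0.0924 to 0.0259 for Galc, −0.0450 to 0.0152 for Glb1, −0.00671 to 0.0738 for Galns, −0.0321 to 0.00159 for Lipa, −0.0107 to 0.0508 for Laptm4a and −0.0415 to 0.0119 for Plbd2. A block for the replicate number gave 19 members higher and 1 lower. Deviations of same-numbered libraries correlated at −0.0444, 0.109 and −0.0829, within the −0.123 to 0.171 of libraries with different numbers. No pairing was seen, but so few values cannot exclude it. The median log2 change of all tested genes was −0.0037 in the main fit, 0.0047 under median-ratio scaling and −0.0094 under TPM scaling. That of the members was 0.115, 0.124 and 0.109 in the same settings. Cln3 and Ctsc had 11 or fewer reads per library, which leaves their levels uncertain, and why the counts were low was not tested.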
